A study of Mus musculus with 6 samples.

Results

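The genes described here are 37 erythroid genes other than the globins and heme enzymes: the transcription factors of the red cell lineage, the erythropoietin receptor, the proteins of the red cell membrane and its skeleton, the blood group carriers, and a set of cytosolic and maturation genes. They were chosen by symbol, through the platform annotation of the array, with older names such as Epb4.9 followed to current ones. Of the 37 symbols, 32 were matched to at least 1 named probe (58 probes of the 45281 on the array), 31 had a probe detected on at least 1 array, and 30 entered the test among 10209 genes. No probe was matched to Zfpm1, Epb41, Ahsp, Fech2 or Rhce, whose RNA was not analysed here.

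The study compared 3 mice of a conditional knockout (KO) of N-Me, an enhancer of Myc that NOTCH1 binds, given tamoxifen at 3 mg/kg in corn oil, with 3 wild-type (WT) mice given corn oil alone. All were of the C57 BL6 strain, injected intraperitoneally and processed 40 h later, and 1 Illumina bead array was hybridised per mouse. Genotype and treatment differ together, so an effect of the enhancer deletion and one of tamoxifen cannot be told apart. Which tissue was taken, how old the mice were and which promoter drives the recombinase are points the sources used here do not give.

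Red cells arise from progenitors that depend on erythropoietin, acting through its receptor and the kinase JAK2. GATA1, with its partners, and KLF1 then switch on the genes of the late lineage, among them those of the membrane. The red cell membrane is held by a mesh of spectrin and short actin filaments, which ankyrin and the product of Epb41 tie to transmembrane proteins, and several of those proteins carry blood group antigens. In the mouse, red cells are made in bone marrow and, in the adult as well, in the spleen.

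Nearly all of the 30 tested genes described here were higher in KO tamoxifen mice than in WT vehicle mice. Of the 30 tested genes, 26 rose and 0 fell at a Benjamini-Hochberg adjusted p under 0.05 by limma (0 also at an unadjusted p under 0.05). Of all 10209 genes tested, 19.7% rose and 17.1% fell. The median log2 fold change of the 30 genes was 0.91, against 0.00110 over all genes tested, and 12 of the 26 rises were at least 2-fold. The 26 rises ran from 1.46-fold for Gypc to 2.81-fold for Icam4. All 3 KO arrays lay above all 3 WT arrays for 26 of the 30 genes, where 26.1% of all tested genes did so, (E2f2, not called, among them, and Gypc, called, not), and below them for 0, where 24.4% of all tested genes did so. With 3 arrays against 3, an exact permutation test of a single gene cannot give a 2-sided p below 0.1, so the calls rest on the fit over all genes. All 30 genes were detected on each of the 6 arrays, so none entered the test through 1 group alone. In bulk RNA, more cells of the lineage and more transcript per cell cannot be told apart.

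**Figure D1:**
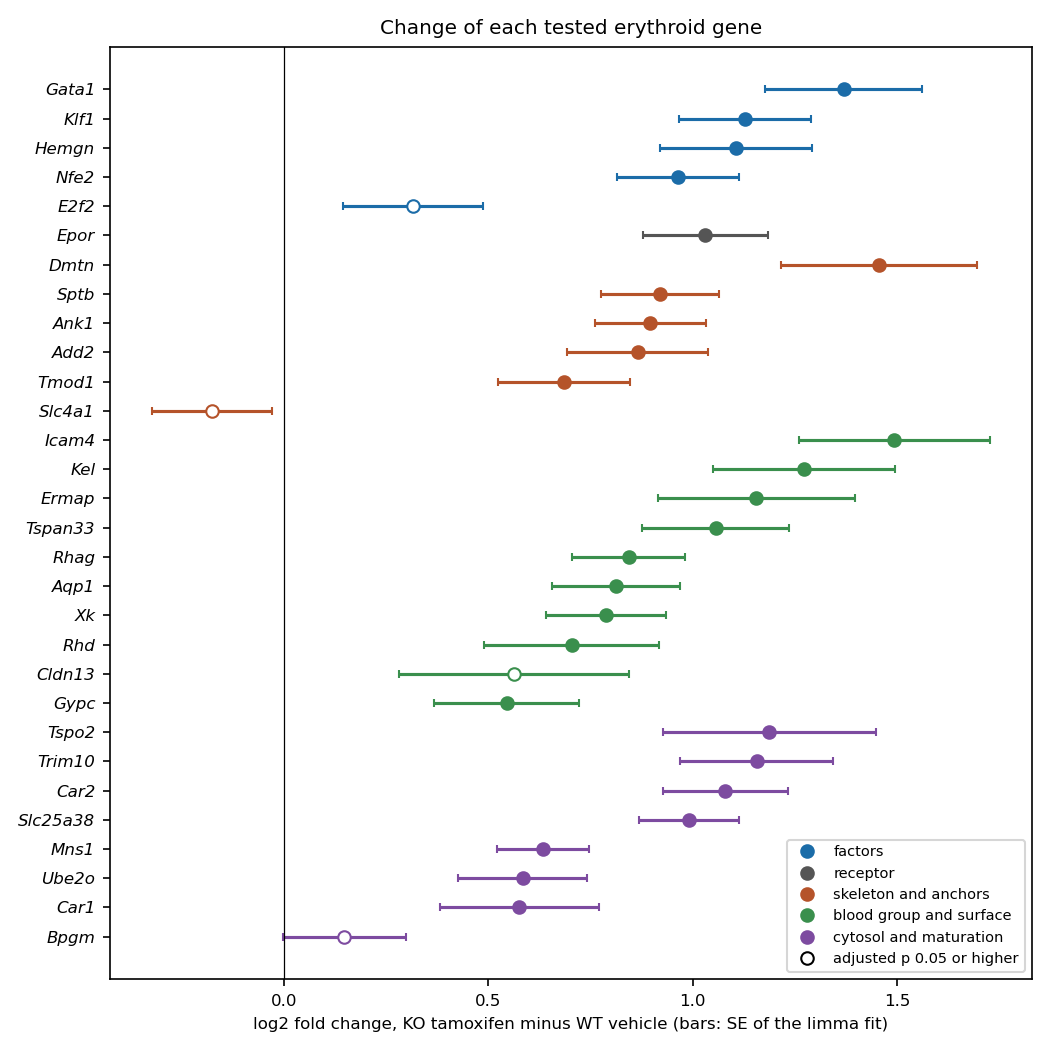
The log2 fold change of each of the 30 tested genes (KO tamoxifen minus WT vehicle, x axis) is drawn with the standard error of the limma fit, in colours by role. Filled points passed an adjusted p of 0.05; E2f2, Slc4a1, Cldn13 and Bpgm are open, and Slc4a1 alone lies below 0.

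The 6 arrays held 18215 to 19486 detected probes. Signals are given as log2 values after background correction and quantile normalization, and each log2 fold change carries its standard error from the limma fit. Myc itself read 7.42, 6.95 and 7.11 in KO, against 8.95, 8.75 and 9.04 in WT, which is in the direction of the labels but does not show the deletion. Bright T cell genes were found on every array (Cd3d averaged 13.46 in KO and 13.62 in WT). The globin genes Hba-a1, Hbb-bs and Hbb-bt lay near the top of the scale on every array, so RNA of T cells and of red cells was present in both groups.

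The arrays held the same order for most of the erythroid genes. KO replicate 1 was the lowest KO array for 26 of the 30 genes and KO replicate 3 the highest for 22. Among WT arrays, replicate 2 was the highest for 24 genes and replicate 1 the lowest for 25. Relative to the WT mean of each gene, the median over the 30 genes was 0.82, 0.94 and 1.05 on the KO arrays, against -0.19, 0.22 and -0.02 on the WT arrays. The gap between the lowest KO and the highest WT array was thus larger than the spread within either group.

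**Figure D2:**
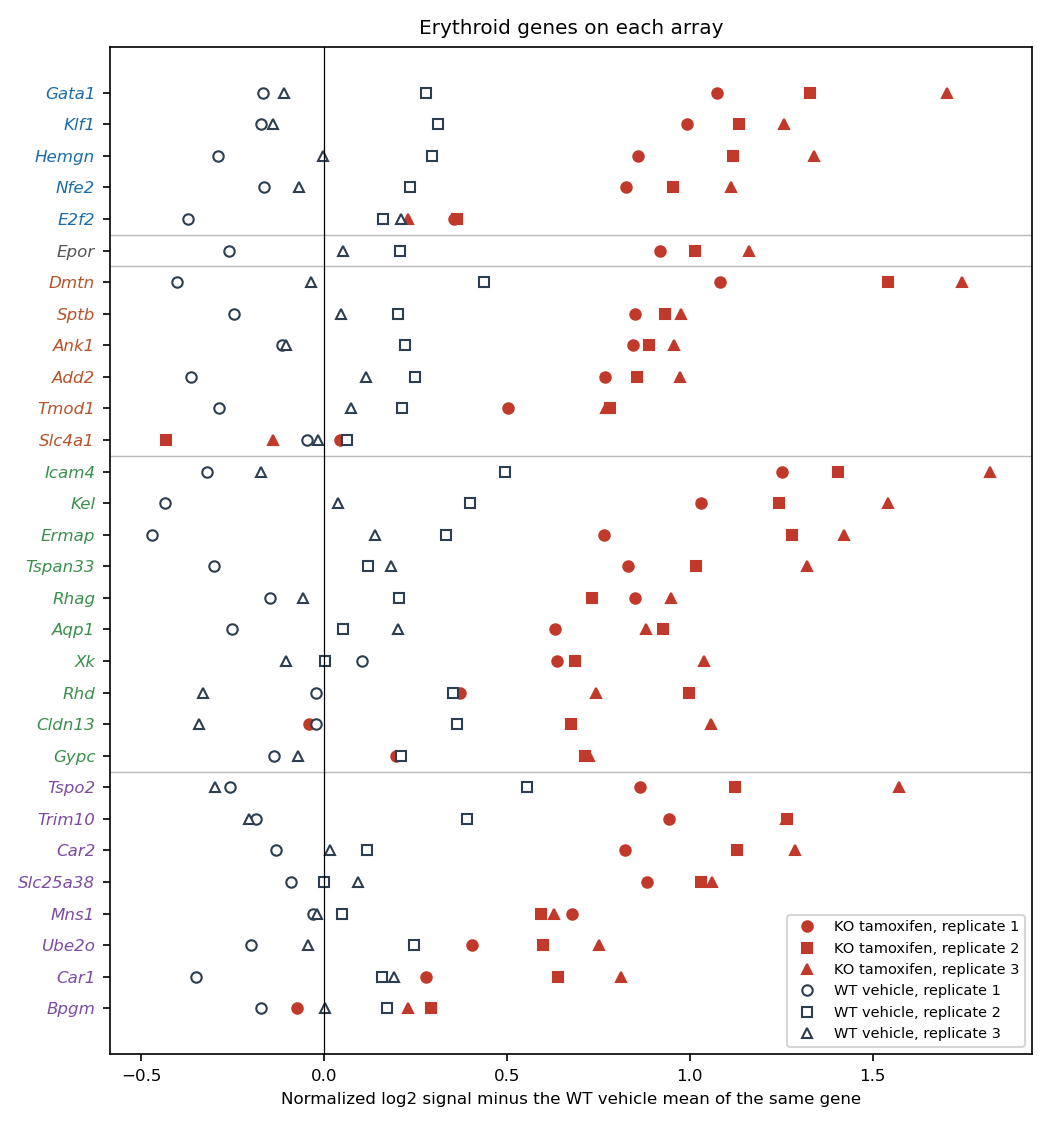
For each gene (rows, coloured by role), the normalized log2 signal of every array is drawn as its distance from the WT vehicle mean of that gene, with KO tamoxifen arrays filled and WT vehicle arrays open. KO circles (replicate 1) sit leftmost among the KO arrays for 26 of the 30 genes, and WT squares (replicate 2) rightmost among the WT arrays for 24.

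Among the transcription factors, 4 of the 5 tested genes rose. Gata1, the zinc finger factor that directs the erythroid and megakaryocyte lineages, read 8.96, 9.22 and 9.60 in KO and 7.72, 8.17 and 7.78 in WT. It rose 2.58-fold (log2 fold change 1.37 ± 0.19, adjusted p = 0.00159 by limma), and the groups did not overlap. A dimmer Gata1 probe, detected on 3 KO arrays and 1 WT array, was at 0.46 ± 0.18 and did not pass (adjusted p = 0.0809 over all kept probes, limma). Klf1, the factor that binds CACC boxes of globin and membrane genes, read 12.41, 12.55 and 12.67 in KO and 11.24, 11.73 and 11.28 in WT. The rise of Klf1 was 2.18-fold (1.13 ± 0.16, adjusted p = 0.00177 by limma). Nfe2, a subunit of the NF-E2 factor that acts on globin genes and in platelet formation, read 12.95, 13.07 and 13.23 in KO and 11.96, 12.35 and 12.05 in WT, a 1.95-fold rise. Hemgn, which encodes the nuclear protein hemogen of blood progenitors and erythroid cells, rose by 1.11 ± 0.18 (adjusted p = 0.00295 by limma).

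E2f2, a cell cycle factor that restrains division in maturing erythroblasts, was the tested factor without a call. It read 12.74, 12.75 and 12.61 in KO and 12.01, 12.55 and 12.60 in WT (0.32 ± 0.17, adjusted p = 0.179 by limma). The KO arrays lay above the WT arrays, but WT replicate 3 nearly reached KO replicate 3. Its further probes were at 0.30 and 0.33, also without a call.

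The promoters of the listed genes are described too, whatever their call. RefSeq windows (GRCm38.p6, 250 bases before to 50 after each start) were matched for 25 of the 37 genes. Among the 25 were Epb42, Epb41, Zfpm1 and Trim58, which were not tested, and E2f2 and Bpgm, which had no call. A GATA motif, searched on both strands as AGATAA, as AGATAG, as TGATAA and as TGATAG, was found in the window of 14 of the 25 genes (56.0%, against 33.0% of all 27025 genes with a window). The KLF1 motif, searched as CCNCNCCC on both strands, was found for 17 of the 25 (68.0%, against 51.9%). The MYC E-box CACGTG was found for 0 of the 25, where 8.1% of all genes hold it. The GATA and KLF1 letters cannot match the same bases in full, but neighbouring matches of the KLF1 motif can overlap each other. These matches describe letters only and show no binding. The window of Klf1 at chr8:84901732-84902031 on the plus strand is shown because this factor rose and a GATA match lies upstream of its start. Capitals mark matches to the GATA or KLF1 motif on either strand.

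Klf1: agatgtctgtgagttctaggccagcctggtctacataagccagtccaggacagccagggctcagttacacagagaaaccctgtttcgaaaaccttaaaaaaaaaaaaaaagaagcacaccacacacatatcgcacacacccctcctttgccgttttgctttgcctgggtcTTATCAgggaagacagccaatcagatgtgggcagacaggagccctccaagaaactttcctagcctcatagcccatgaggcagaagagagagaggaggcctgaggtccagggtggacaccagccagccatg

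Epor, the receptor that erythropoietin uses to keep early erythroblasts alive, rose 2.04-fold. It read 10.50, 10.60 and 10.75 in KO and 9.33, 9.80 and 9.64 in WT (1.03 ± 0.15, adjusted p = 0.00193 by limma). The groups did not overlap. Its promoter window at chr9:21963527-21963826 on the minus strand is printed because it holds both motifs, in capitals as above.

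Epor: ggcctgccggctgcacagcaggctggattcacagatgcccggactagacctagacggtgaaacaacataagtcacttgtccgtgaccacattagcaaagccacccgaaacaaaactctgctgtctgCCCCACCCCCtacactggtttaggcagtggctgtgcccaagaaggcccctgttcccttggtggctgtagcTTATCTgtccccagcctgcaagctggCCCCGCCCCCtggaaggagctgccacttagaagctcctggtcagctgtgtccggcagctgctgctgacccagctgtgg

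Genes that act below the receptor, taken from a list written by hand, rose in 6 of 12 tested cases and fell in 0, with a median of 0.72. The largest rise was in Gab1, a docking protein of receptor kinases, at 1.49 ± 0.13 (adjusted p = 0.000350 by limma). The feedback genes Cish and Socs3, which STAT5 and STAT3 switch on, rose by 0.89 ± 0.15 and 0.85 ± 0.17. Chosen after their values were seen, Jak2, the kinase bound to the receptor, rose by 0.69 ± 0.13, and Stat5a, a factor it activates, was at -0.21 ± 0.13 (adjusted p = 0.236 by limma). Other cells respond to cytokines through the same genes, and their part in these values was not tested.

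The skeleton of the membrane showed rises in 5 of 6 tested genes. Dmtn, which encodes dematin, a protein that bundles actin, had the largest. It read 11.88, 12.34 and 12.54 in KO and 10.39, 11.23 and 10.76 in WT, a 2.74-fold rise (1.46 ± 0.24, adjusted p = 0.00281 by limma). A bright further probe rose by 1.48 ± 0.22. A dim one was detected on 3 KO arrays and 0 WT arrays. It was thus kept through the KO group alone, and its call is no further support. It averaged 5.69 in KO and 5.02 in WT. Set against the lowest detected signal of each WT array, it was at least 1.26-fold higher in KO. Sptb, the erythroid beta-spectrin, read 12.89, 12.97 and 13.01 in KO and 11.79, 12.24 and 12.08 in WT (0.92 ± 0.14). A dim Sptb probe annotated to another transcript was at -0.12 ± 0.13, without a call, and 3 more were not kept. Ank1, the ankyrin that ties spectrin to band 3, read 12.34, 12.38 and 12.45 in KO and 11.38, 11.71 and 11.39 in WT (0.90 ± 0.14). A dim second Ank1 probe was at 0.51 ± 0.29 (adjusted p = 0.219 over all kept probes, limma). Add2 and Tmod1, whose proteins cap the 2 ends of the actin filaments, rose by 0.87 ± 0.17 and 0.69 ± 0.16. A further Add2 probe of similar brightness rose by 1.40 ± 0.16, and a dim one by 0.91 ± 0.21, so the size of the rise depends on the probe. Epb42, whose product binds band 3 and ankyrin, was not well above background on any array and was not tested.

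Slc4a1, the anion exchanger band 3 and the most abundant protein of the red cell membrane, stood apart from its partners. It read 14.70, 14.22 and 14.52 in KO and 14.61, 14.72 and 14.64 in WT, and the groups overlapped (-0.18 ± 0.15, adjusted p = 0.379 by limma). Its fold change was negative under each of the 13 alternative settings, from -0.30 to -0.05, without a call in any. The raw Slc4a1 signals were 19414.5 to 24205.3 in KO and 25771.4 to 28176.9 in WT, and the brightest probe of each array read 32165.5 to 36092.1. Only 45 to 138 probes were brighter on each array. Of the 5 tested globin genes, 3 lay at the same end of the scale: Hba-a1 was at 0.16 ± 0.11, Hbb-bt at 0.15 ± 0.12 and Hbb-bs at -0.04 ± 0.13, none with a call. The dimmer Hbb-b2 (0.47 ± 0.33) and Hbb-bh1 (0.05 ± 0.14) had no call either. Near-identical globin copies can share these probes. Alas2, the first enzyme of heme synthesis in red cells, read 13.41, 14.13 and 14.12 in KO and 12.85, 13.39 and 13.08 in WT and rose by 0.78 ± 0.22 (adjusted p = 0.0246 by limma). Whether signal near the top of the scale is compressed was not tested.

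**Figure D3:**
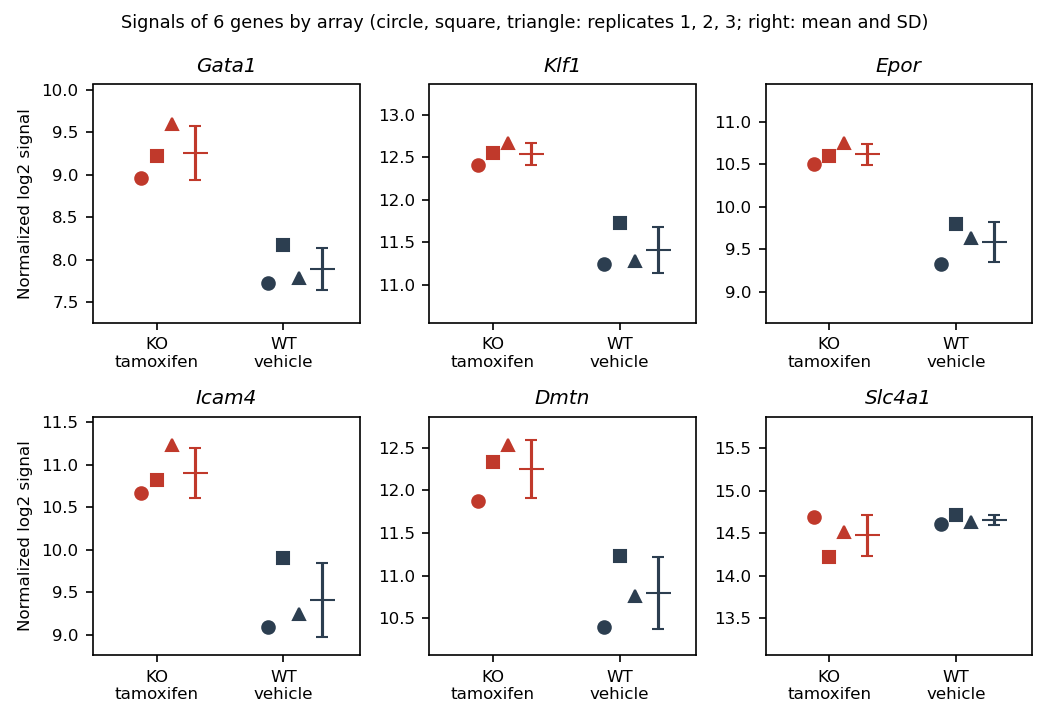
Normalized log2 signal of 6 genes, with 1 point per array (circle, square and triangle for replicates 1, 2 and 3) and the mean with its SD beside them (n = 3 per group); each panel spans the same log2 height. The KO tamoxifen arrays lie above the WT vehicle arrays for Gata1, Klf1, Epor, Icam4 and Dmtn and overlap them for Slc4a1.

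Relatives of these skeleton genes outside the genes studied were listed by hand too: 3 of 9 tested rose and 0 fell, with a median of 0.15. The 3 were Add3 at 0.68 ± 0.17, Epb41l3 at 0.57 ± 0.11 and Add1 at 0.56 ± 0.12. The difference between the lists was not tested, and Add1 and Add3 also stand in the next list. Of other membrane genes of red cells, 11 of 21 rose and 1 fell, at a median of 0.54. They were led by the urea transporter gene Slc14a1 (1.45 ± 0.26), the complement regulator gene Cd55 (1.30 ± 0.24) and Art4 (1.04 ± 0.19), which carry the Kidd, Cromer and Dombrock antigens in humans. The gene that fell was Tpm3, a tropomyosin, at -0.41 ± 0.13, named after its value was seen.

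Blood group and surface genes rose in 9 of 10 tested cases. Icam4 encodes the LW antigen, an adhesion molecule through which erythroblasts hold to macrophages. It read 10.66, 10.82 and 11.23 in KO and 9.09, 9.91 and 9.24 in WT, the largest rise among the 26 (1.49 ± 0.23, adjusted p = 0.00236 by limma). For that reason its window at chr9:21029182-21029481 on the plus strand is shown, with capitals as above.

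Icam4: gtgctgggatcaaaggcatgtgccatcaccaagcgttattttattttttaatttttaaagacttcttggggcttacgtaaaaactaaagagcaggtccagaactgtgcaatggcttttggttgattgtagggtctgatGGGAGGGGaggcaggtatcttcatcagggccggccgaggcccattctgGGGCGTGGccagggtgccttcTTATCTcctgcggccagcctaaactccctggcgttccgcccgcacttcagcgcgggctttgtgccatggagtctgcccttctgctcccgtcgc

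Kel, an endopeptidase of the red cell surface and carrier of the Kell antigens, read 12.60, 12.82 and 13.12 in KO and 11.14, 11.97 and 11.61 in WT (1.27 ± 0.22). Xk, its partner in the membrane, read 8.20, 8.25 and 8.60 in KO and 7.67, 7.56 and 7.46 in WT (0.79 ± 0.15). Both rose, with no overlap of the groups. Ermap, a surface protein that carries the Scianna antigens, rose by 1.16 ± 0.24, and the tetraspanin gene Tspan33 by 1.06 ± 0.18.

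Of the Rh complex, Rhag, whose product brings Rh proteins to the surface, read 11.95, 11.84 and 12.05 in KO and 10.95, 11.31 and 11.05 in WT. It rose by 0.84 ± 0.14, and its further probes by 0.79 ± 0.18 and 0.76 ± 0.17. Rhd, the Rh gene of the mouse, was dim, at 6.34, 6.97 and 6.72 in KO and 5.95, 6.33 and 5.64 in WT. Its rise was 0.70 ± 0.21 (adjusted p = 0.0313 by limma), although WT replicate 2 nearly reached KO replicate 1. The call was lost under 6 of the 13 alternatives: without KO replicate 2 or 3 or WT replicate 1 or 3 (adjusted p of 0.0859 to 0.111), with no detection filter (0.0690) and in the deposited log2 table, where the change was 0.31 (0.0520). Aqp1, the water channel that carries the Colton antigens and is also made by endothelium, rose by 0.81 ± 0.16, and by 1.02 and 1.06 on its further probes.

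Gypc and Cldn13 were the weakest of the surface genes. Gypc, the glycophorin that binds the product of Epb41, read 11.84, 12.36 and 12.37 in KO and 11.51, 11.85 and 11.57 in WT. KO replicate 1 lay just below WT replicate 2. The rise of 0.54 ± 0.18 (adjusted p = 0.0408 by limma) was lost without KO replicate 2 or 3 or WT replicate 1 or 3 (adjusted p of 0.118 to 0.131), with no detection filter (0.0731) and with median scaling (0.186). Cldn13, a claudin gene of rodents, read 6.57, 7.29 and 7.67 in KO and 6.59, 6.97 and 6.27 in WT and had no call (0.56 ± 0.28, adjusted p = 0.150 by limma). It passed without KO replicate 1, the array on which it was lowest in KO, at 0.87 (adjusted p = 0.0167).

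The cytosolic and maturation genes rose in 7 of 8 tested cases. Slc25a38, the carrier that brings glycine into mitochondria for heme synthesis, read 12.96, 13.10 and 13.13 in KO and 11.98, 12.07 and 12.17 in WT (0.99 ± 0.12, adjusted p = 0.00116 by limma), the smallest adjusted p among the 30 genes. Its further probes rose by 1.40 ± 0.18 and 1.13 ± 0.26. Trim10, a ubiquitin ligase needed for late erythroid differentiation, read 13.08, 13.40 and 13.40 in KO and 11.95, 12.52 and 11.93 in WT (1.16 ± 0.19). Tspo2, which acts on cholesterol in maturing erythroblasts, rose by 1.19 ± 0.26. Ube2o, which marks proteins for removal in reticulocytes, rose by 0.58 ± 0.16, a call lost without KO replicate 2 or 3 or WT replicate 1 or 3 (adjusted p of 0.0517 to 0.0777, limma) and with median scaling (0.114). Mns1, known for its part in sperm flagella and not as a red cell gene, rose by 0.63 ± 0.11, with a replicate SD of 0.04 in each group.

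The 2 carbonic anhydrases of red cells, which interconvert carbon dioxide and bicarbonate, both passed the test. Car2 read 12.95, 13.25 and 13.41 in KO and 11.99, 12.24 and 12.14 in WT (1.08 ± 0.15, adjusted p = 0.00164 by limma). Car1 read 13.14, 13.50 and 13.67 in KO and 12.51, 13.02 and 13.06 in WT (0.58 ± 0.19, adjusted p = 0.0463 by limma). The call of Car1 was lost without any 1 array other than KO replicate 1 (adjusted p of 0.0547 to 0.153, limma), with no detection filter (0.0895) and with median scaling (0.135), while Car2 kept its call under all 13 alternatives. Among other carbonic anhydrases, 4 were tested: Car13 rose by 1.21 ± 0.17 and Car15 by 0.69 ± 0.18, and Car12 fell by 4.30 on the log2 scale, to 5.57, 5.26 and 4.86 in KO, of which 2 arrays detected it, against 9.45, 9.44 and 9.72 in WT.

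Bpgm, which makes the ligand that lowers the oxygen affinity of hemoglobin, had no call. Its kept probe, annotated to another transcript than the RefSeq one, read 6.14, 6.50 and 6.44 in KO and 6.04, 6.38 and 6.21 in WT (0.15 ± 0.15, adjusted p = 0.471 by limma). The probe for the RefSeq transcript was detected on 2 KO arrays and on 0 WT arrays and was not tested. Trim58, a ligase that acts in the expulsion of the nucleus, was likewise near background: its 2 probes were detected on 1 and 2 KO arrays and on 0 WT arrays. Without the detection filter Trim58 was not called.

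Some of these genes had more than 1 kept probe. Of 17 further kept probes, belonging to 11 genes, 12 were called higher and 0 lower in a fit over all 19082 kept probes. The share of all kept probes called in that fit was not counted, so the 12 cannot be read against it. Over all genes tested, 19.7% were called higher. The 12 include the dim Dmtn probe, which was kept through the KO arrays alone. These probes are second readings of genes already counted above and add no further genes. The 5 without a call were those of Gata1, Ank1 and Sptb given above and both of E2f2, and the Sptb probe alone was negative.

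Other genes of the lineage came from lists written by hand. Of 21 further factors, 8 rose and 0 fell, at a median of 0.36, and 4 of those without a call were negative. The rises were led by Sox6, a factor of definitive red cells, at 1.29 ± 0.27, Bcl11a, which silences fetal globin in humans, at 1.21 ± 0.16, and Tal1, a GATA1 partner, at 1.17 ± 0.20. Several of these genes are active in other blood cells. Of 18 further late maturation genes, 13 rose and 0 fell, at a median of 0.62, led by Ypel4 at 1.57 ± 0.20, Tent5c at 1.17 ± 0.18 and Ypel3 at 1.04 ± 0.13.

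**Figure D4:**
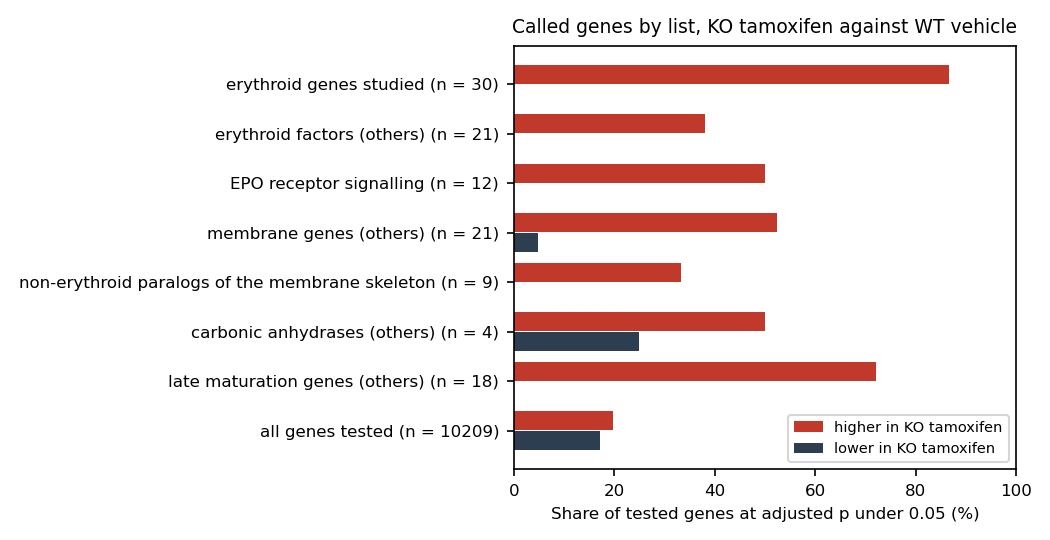
The share of tested genes in each list (x axis, percent) that passed an adjusted p of 0.05 in each direction in KO tamoxifen against WT vehicle mice, with the number tested beside each name. The share that rose is 86.7% for the erythroid genes studied, 72.2% for further late maturation genes and 19.7% for all genes.

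Markers of other cell types moved as well. All 8 tested macrophage markers rose, among them C1qa by 1.30 ± 0.20, and their summed normalized signal was 21776 to 27997 in KO, against 13192 to 14912 in WT. All 6 tested endothelial markers rose, with sums of 3466 to 4111 in KO and 2113 to 2208 in WT. Both lists had the KO arrays above the WT arrays, as the erythroid genes did.

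The summed signals of megakaryocyte and of neutrophil markers did not follow that pattern on KO replicate 1. Of 6 tested megakaryocyte markers, 1 rose (Gp9), and the sum was 1975, 6671 and 6725 in KO and 2103, 3021 and 2184 in WT. Of 8 neutrophil markers, 0 passed, with sums of 3682, 15936 and 12822 in KO and 4498, 6526 and 5308 in WT. KO replicate 1 was below every WT array for both sums. Of the tested megakaryocyte markers, only Gp9 was above every WT array there (7.71, against 7.18, 7.69 and 7.32 in WT). Megakaryocytes also use Gata1 and Nfe2, which rose. The part of megakaryocytes in their rises was not tested.

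Red cell markers (globins and Alas2, 6 tested) had 1 rise and 0 falls, with sums of 97486 to 100413 in KO and 82635 to 89891 in WT. Of 10 tested T cell markers 1 rose, Themis at 0.53 ± 0.12. The 3 that fell were Rag1 at -2.80 ± 0.20, Ptcra at -1.94 ± 0.20 and Dntt at -1.25 ± 0.18. Cd3d, Cd3e, Cd3g, Cd4, Cd8b1 and Lat had no call. Sums of this list were 39816 to 40978 in KO and 42789 to 46227 in WT. Probes of Cd8a and Rag2 were not detected on any array. B cell markers rose in 1 of 3 tested cases (sums 1052 to 1941 in KO and 475 to 800 in WT, Pax5 not detected). Mast cell, basophil and eosinophil markers rose in 2 of 3 tested cases, Kit by 1.33 ± 0.25 and Cpa3 by 1.18 ± 0.30, while Prg2 had no call. Kit was the brightest of the 3 on every array. Sums of this list were 818 to 1613 in KO and 482 to 658 in WT. Probes of Mcpt8, Ms4a2, Epx, Il5ra and Siglecf were not detected on any array. Thymic epithelial markers had 0 rises and 1 fall among 2 tested. The fall was in Cldn4 alone (-2.55 ± 0.22), and Krt8 was at 0.10 ± 0.51 without a call. Sums of this list were 233 to 276 in KO and 534 to 735 in WT, and Epcam, Krt5, Foxn1 and Cldn3 were not detected. The part of these cell types in the erythroid rises was not tested.

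**Figure D5:**
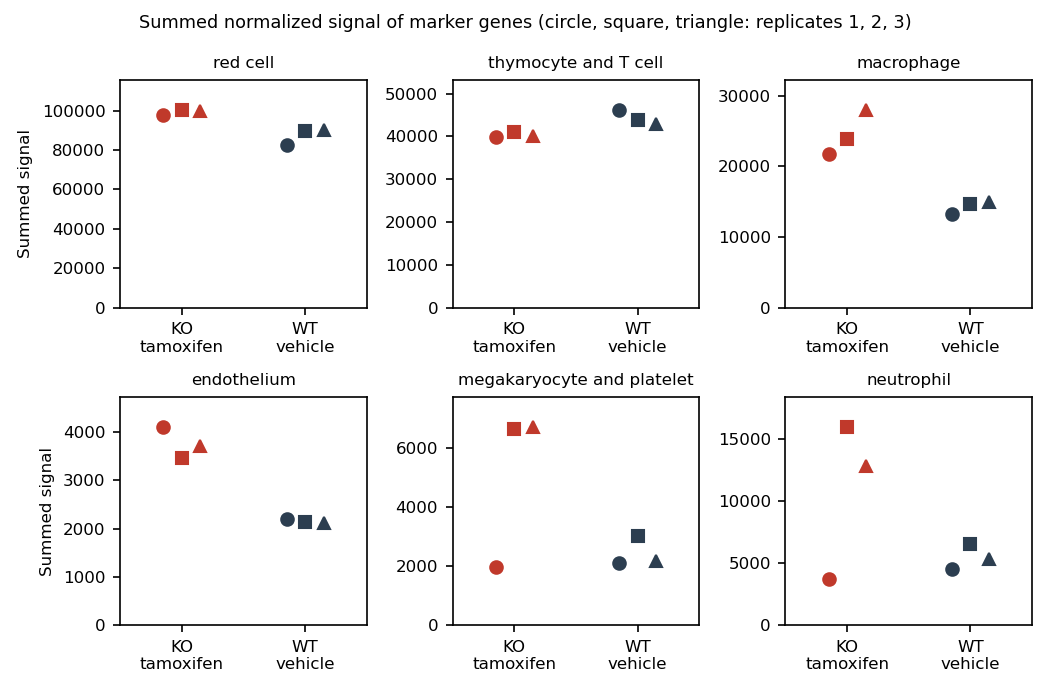
Summed normalized signal, on a linear scale from 0, of marker genes of 6 cell types on each array, with KO tamoxifen left of WT vehicle. Macrophage and endothelial sums are higher on all 3 KO arrays, while megakaryocyte and neutrophil sums on KO replicate 1 (circle) lie below all 3 WT arrays.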

How the data were processed

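Total RNA of 6 mice was measured on Illumina mouse bead arrays. Each array has, per the file headers, a column of intensity and one of detection p-value over all probes; the sources used here do not name the scanner software. The authors' deposited log2 table matched the log2 raw intensities after quantile normalization within 5e-05. Titles of the samples gave groups and replicate numbers and name biological replicates; 0 columns were left aside.

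The intensities were processed with neqc of limma 3.58.1 in R 4.3.3: background correction inferred from detection p-values, an offset of 16, quantile normalization and log2. Quantile normalization gives all arrays one distribution, so changes are relative to it, and folds of dim genes depend on the correction. Probes detected at p under 0.05 on at least 3 arrays were kept (19082), and the brightest stood for its gene. Symbols came from the platform annotation, updated by Entrez identifier through RefSeq (GRCm38.p6): 34885 probes had 1 symbol, 18 several and 10378 none.

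All 10209 genes were fitted with lmFit and eBayes, 2-sided, on group alone, with Benjamini-Hochberg adjustment. The fit was tested on simulated data. The number of arrays limits the precision. Named were all listed genes and, per further list, at most 3 called genes with the largest change. The genes, lists and tests were chosen with earlier results of these data known. Alternatives were the deposited log2 table, median scaling, 2 other detection filters, the mean of a gene's probes, a replicate block, trend and robust eBayes, and leaving out each array. Figures were drawn with matplotlib 3.10.9.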

Additional observations from a re-analysis of the deposited data

How the results depend on the processing

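Of the 26 erythroid genes called, 22 kept their call under each of the 13 alternatives run, and the exceptions were Gypc, Rhd, Car1 and Ube2o. The number called higher was 22 to 27 of 30 with 1 array left out, where 13.1% to 20.5% of all genes were. Under the others it was 23 to 26. Median scaling gave 23 of 30, against 15.8% of all genes. With no detection filter it was 23 of 32, against 9.56% of 19057 genes. Under every alternative 0 erythroid genes were called lower, where 8.51% to 18.6% of all genes were. The erythroid median log2 fold change was 0.84 to 1.00 with 1 array left out and 0.78 with median scaling. That scaling moved the median of all genes to -0.05. With the mean of all kept probes, in which a dim probe enters for both genes, Sptb was at 0.40 and Gata1 at 0.91. Rhd was at 0.31 in the deposited log2 table, which has no background correction.

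Over all genes, the counts of higher and lower genes were 1342 to 2092 and 1143 to 1837 with 1 array left out. Leaving out WT replicate 3 gave 1342 and 1144, and leaving out WT replicate 1 gave 1143 lower ones. Same-numbered arrays deviated together at r = 0.17, 0.12 and -0.08 across genes. KO replicates 1 and 2 each matched best the WT array of the same number, and KO replicate 3 matched best WT replicate 2. The reported fit does not pair the mice by number, and whether the numbers mark a shared batch was not tested. With the replicate block, 26 erythroid genes were called higher and 0 lower, and 2016 and 1697 of all genes.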
